A study of Arabidopsis thaliana with 6 samples.

Results

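The UDP-dependent glycosyltransferase (UGT) genes of Arabidopsis thaliana were compared between the mutant esd7-1 and the wild type Landsberg erecta (Ler), both as seedlings. A gene was taken as a member where a probe set named that gene and no other and its symbol was UGT followed by a number. The rule gave 47 of the 13356 genes with such a probe set, in 11 families by number, and each member had 1 probe set. The gene annotation holds 58 such symbols, and 11 of them were not members. Another 5 glycosyltransferase genes were measured under other names. The members are thus a part of the gene family. None of the 47 probe sets carried the suffix that marks probes shared between transcripts. The gene ESD7 encodes the catalytic subunit of DNA polymerase epsilon, which copies the leading strand, and plants with the single allele used here, esd7-1, flower early.

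Both genotypes were grown under the same chamber conditions in short days and collected at 14 days, 8 h after dawn. Each genotype had 3 Affymetrix arrays, and each array held RNA extracted from its own pool of plants. Values are log2 expression summaries, so a difference of 1 is a 2-fold difference, and levels are compared only within a gene. In bulk seedlings, fewer cells of a type and less RNA per cell cannot be told apart.

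UGTs move a sugar from a UDP-sugar onto small molecules. In plants the acceptors include hormones, flavonoids, phenylpropanoids, glucosinolate precursors and xenobiotics, and the sugar usually makes the molecule more soluble and often inactive or storable. A UGT name gives the family as a number, the subfamily as a letter and the gene as a last number. Genes of 1 subfamily often lie next to each other and can share acceptors, so members are not independent of each other.

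The 6 arrays had medians of 4.81 to 4.89 over 22746 plant probe sets. On esd7-1 replicate 3 and Ler replicate 2 the bacterial poly-A control RNA averaged 6.18 and 6.84, against 5.47 to 5.60 on the other 4 arrays. These 2 arrays are called the arrays with high control RNA. Each genotype holds 1 of them, and results are given with and without them. Photosynthesis markers were read on all arrays: RCA, the Rubisco activase, lay between 13.37 and 13.76 in esd7-1 and between 13.62 and 13.76 in Ler. The root beta-glucosidase PYK10 lay between 10.57 and 11.98 in esd7-1 and between 10.42 and 11.80 in Ler. The labelled tissue, seedlings, thus showed both shoot and root transcripts. ESD7 itself was not analysed here, so the mutant label was not checked against it.

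None of the 47 UGT genes passed the test between esd7-1 and Ler, which was limma at a threshold of 0.05 on p-values adjusted by Benjamini-Hochberg over the 22746 probe sets. In that fit 0% of all probe sets passed, while 5.78% of them had an unadjusted p under 0.05. The smallest adjusted p among the members was 0.733 in limma. Of the 47, 27 (57.4%) read higher and 20 lower in esd7-1, against 54.7% of all genes that read higher. The median difference was 0.09, against 0.02 over all 13356 genes. The median size of a difference, without its sign, was 0.19 among the members and 0.12 among all genes, while the median standard error was 0.16 among the members and 0.14 among all genes. All differences are esd7-1 minus Ler.

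Without adjustment, 7 of the 47 members, or 14.9%, had a limma p under 0.05, against 5.26% of all genes. Of these, 4 were higher in esd7-1 (2.13% of all genes) and 3 lower (3.12% of all genes). The count was 2 without Ler replicate 1 (5.17% of all genes in that fit) and 2 without Ler replicate 3 (2.85% of all genes). For 7 members, or 14.9%, the 3 esd7-1 values lay all above or all below the 3 Ler values, against 11% of all genes. Of those 7, 4 lay above (5.69% of all genes) and 3 below (5.27% of all genes). The lists share 6 genes: UGT73B1, UGT74D1, UGT84A3, UGT73B5, UGT76B1 and UGT84A4. UGT71C3 was in the first list alone and UGT71B6 in the second alone.

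**Figure D1:**
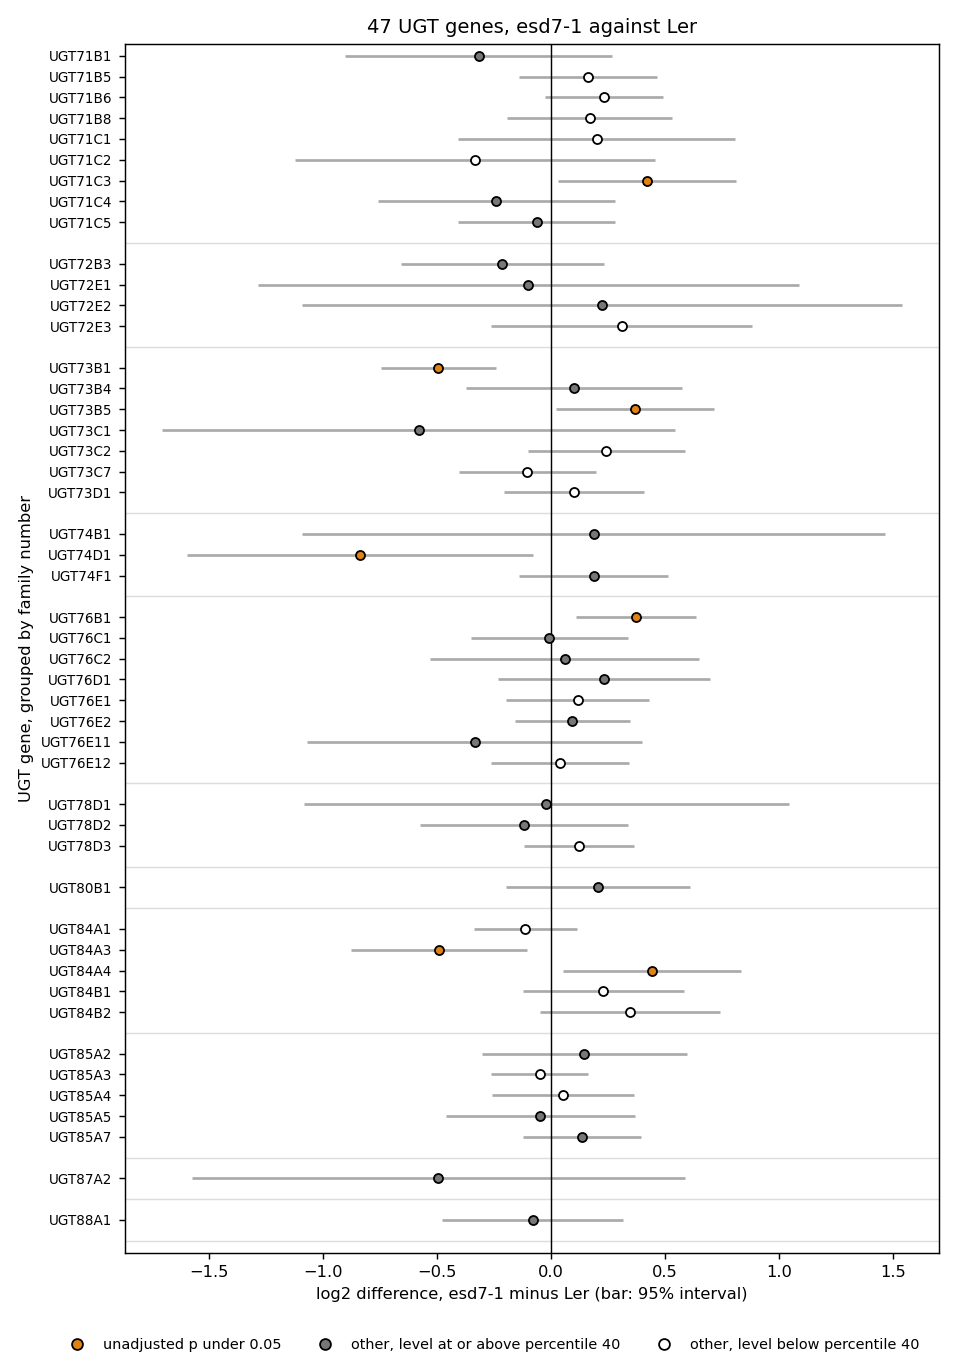
Log2 difference, esd7-1 minus Ler, of the 47 UGT genes (x axis), grouped by family number (y axis). Points are limma differences over 3 arrays per genotype and bars are 95% intervals. Orange marks an unadjusted limma p under 0.05, grey and white the other members at or above and below the 40th percentile of mean level. The differences run from -0.84 for UGT74D1 to 0.44 for UGT84A4.

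UGT73B1 had the smallest p of the members. It belongs to the UGT73B subfamily, whose other members are known for induction by pathogens and oxidative stress. Its values were 6.70, 6.63 and 6.89 in esd7-1, against 7.21, 7.27 and 7.22 in Ler. Every esd7-1 array read lower than every Ler array. The difference was -0.49, with a 95% interval of -0.75 to -0.24 and a limma adjusted p of 0.733. It was -0.55 among the 4 arrays without high control RNA and -0.38 between the 2 arrays with it. Another member of the subfamily, UGT73B5, which is known from resistance to bacteria, had the opposite direction. It read 5.46, 5.38 and 5.21 in esd7-1 and 5.01, 4.74 and 5.19 in Ler. Its esd7-1 values lay above the Ler values by a margin of 5.21 over 5.19, with a difference of 0.37 and a standard error of 0.14. UGT73B4, known for conjugation of the explosive trinitrotoluene and the direct neighbour of UGT73B5 on chromosome 2, differed by 0.10 (standard error 0.20), and its groups overlapped.

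UGT74D1, a glucosyltransferase of auxins, had the largest difference in size. It read 6.79, 6.90 and 5.85 in esd7-1, against 7.54, 6.93 and 7.58 in Ler. The groups did not overlap, but the lowest value of each genotype came from its array with high control RNA, and 6.90 in esd7-1 lay close to 6.93 in Ler. The difference was -0.84, with a 95% interval of -1.60 to -0.08 and a limma adjusted p of 0.846. Among the 4 arrays without high control RNA it was -0.72 (limma adjusted p 0.182), and between the 2 arrays with it -1.08. Without esd7-1 replicate 3 the difference was -0.51, the smallest in size with any single array left out.

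Opposite directions were seen between direct neighbours of the UGT84A subfamily on chromosome 4. UGT84A3 (AT4G15490) and UGT84A4 (AT4G15500) both form glucose esters of hydroxycinnamates, the precursors of sinapate esters. UGT84A3 read 6.92, 7.13 and 6.65 in esd7-1, against 7.45, 7.18 and 7.54 in Ler. UGT84A4 read 4.27, 4.37 and 4.83 in esd7-1, against 4.10, 3.95 and 4.09 in Ler. Neither gene had overlapping groups: the first was lower and the second higher in all esd7-1 arrays. The difference was -0.49 for UGT84A3 and 0.44 for UGT84A4, and the standard error was 0.16 in both. The limma adjusted p was 0.823 for UGT84A3 and 0.846 for UGT84A4. Mean level lay at the 79.6th percentile for UGT84A3 and at the 38.6th for UGT84A4, where signal was low. Of all genes, 37.4% at or above the 40th percentile read higher in esd7-1, and 75.5% below it. Among the 4 arrays without high control RNA UGT84A3 differed by -0.47, close to the value over all 6, and UGT84A4 by 0.22. Without esd7-1 replicate 3, the array with its highest value, UGT84A4 differed by 0.27. The third gene of this row, UGT84A1 (AT4G15480), differed by -0.11 with a standard error of 0.09.

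UGT76B1 glucosylates salicylic acid, isoleucic acid and N-hydroxypipecolic acid, and is known as a brake on immune signalling. It read 4.39, 4.40 and 4.28 in esd7-1, against 3.99, 4.12 and 3.84 in Ler. The esd7-1 values lay above the Ler values on all arrays. The difference was 0.37, with a 95% interval of 0.11 to 0.64 and a limma adjusted p of 0.806. It was 0.48 among the 4 arrays without high control RNA and 0.16 between the 2 with it. The mean level of UGT76B1 lay at the 36.0th percentile of all probe sets, so its signal was low.

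UGT71C3, known for glucosylation of methyl salicylate, read 4.46, 3.91 and 4.32 in esd7-1, against 3.91, 3.84 and 3.68 in Ler. The lowest esd7-1 value equalled the highest Ler value. Its difference was 0.42 with a standard error of 0.16. Its neighbours on chromosome 1 were UGT71C4, which differed by -0.24, and UGT71C5, a glucosyltransferase of abscisic acid, which differed by -0.06. UGT71B6, also a glucosyltransferase of abscisic acid, read 3.66, 3.57 and 3.84 in esd7-1 and 3.46, 3.40 and 3.51 in Ler. Its groups did not overlap, but its difference of 0.23 had a 95% interval of -0.03 to 0.49, and its mean level lay at the 14.5th percentile.

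**Figure D2:**
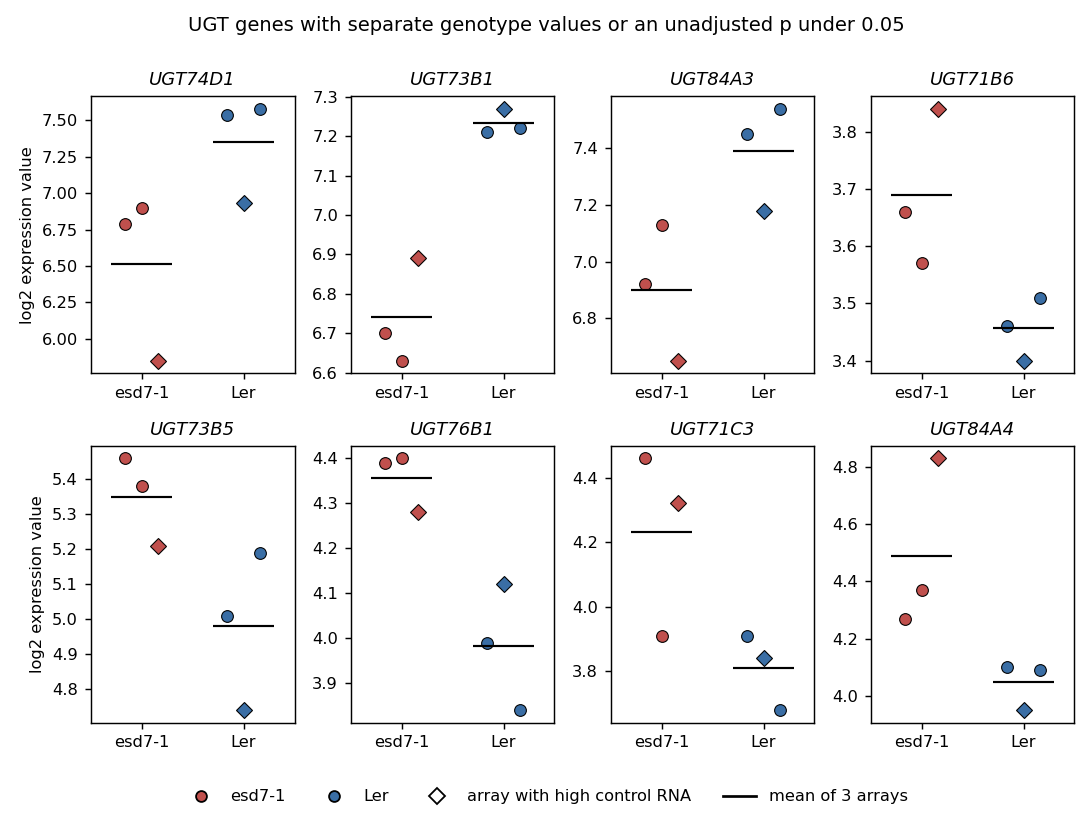
Log2 expression values (y axis) of the 8 UGT genes with separate genotype values or an unadjusted limma p under 0.05, esd7-1 left and Ler right (x axis). Points are arrays, diamonds the arrays with high control RNA, and lines the means of 3 arrays. UGT73B1 read 6.63 to 6.89 in esd7-1 and 7.21 to 7.27 in Ler.

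With both arrays with high control RNA left out, 7 members had an unadjusted limma p under 0.05, and 5 of these were among the 7 over all arrays: UGT73B1, UGT73B5, UGT74D1, UGT76B1 and UGT84A3. That is 14.9% of the members, against 6.41% of all genes in the same fit. Groups of 2 that did not overlap were found for 16 members, or 34.0%, against 32% of all genes. The 7 from the full set are among the 16 by necessity, since leaving out arrays cannot make separate groups overlap. No member passed in this fit, and the smallest limma adjusted p was 0.182, for UGT74D1. The direction was the same among these 4 arrays and between the other 2 for 33 of the 47 members, or 70.2%, against 58.6% of all genes.

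By family number, every family with 3 or more members held both directions, though no difference passed. Genes under another name are not counted by family, among them GT72B1 (also UGT72B1) at -0.38 and SGT (also UGT80A2) at -0.12. The 9 members of family 71, which acts on abscisic acid, hydroxycinnamates and other phenolics, ran from -0.33 to 0.42 with 5 higher in esd7-1. Its lower end was UGT71C2, at -0.33, and UGT71B1, at -0.32. UGT71C2 lies next to UGT71C1, which differed by 0.20, and UGT71B5 differed by 0.16. Family 72, with the monolignol glucosyltransferases, had 2 of 4 higher, between -0.21 for UGT72B3 and 0.31 for UGT72E3. GT72B1, outside this count, lay below that range. Family 73 had 4 of 7 higher and held both UGT73C1 at -0.58 and UGT73B5 at 0.37. Its neighbours UGT73D1 and UGT73C7 on chromosome 3 differed by 0.10 and -0.10. In family 74 UGT74D1 stood at -0.84, while UGT74B1 and UGT74F1 each differed by 0.19. Of 8 members of family 76, 6 were higher, between -0.33 for UGT76E11 and 0.37 for UGT76B1. The neighbours UGT76E1 and UGT76E2 on chromosome 5 differed by 0.12 and 0.09, and UGT76E12, close to UGT76E11, by 0.04.

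The flavonoid family 78 lay between -0.12 and 0.12. Family 84 had 3 of 5 higher, between -0.49 and 0.44. Family 85 lay within a narrow range: its 5 members ran from -0.05 to 0.15, and the 4 that lie in a row on chromosome 1, UGT85A7, UGT85A2, UGT85A5 and UGT85A3, differed by 0.14, 0.15, -0.05 and -0.05. UGT85A4, which lies apart from them, differed by 0.05. UGT85A2 had the largest difference of this family, with a standard error of 0.19. Families 80, 87 and 88 had 1 member each. UGT80B1, a sterol glucosyltransferase of the seed coat, differed by 0.21, UGT87A2 by -0.49 and UGT88A1 by -0.08.

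The direction of the members followed their level. Of the 20 members below the 40th percentile of mean level, 16 read higher in esd7-1, or 80.0%, against 75.5% of all genes below it. Of the 27 members at or above it, 11 read higher, or 40.7%, against 37.4% of all genes there. The median difference was 0.17 and -0.05 for these members, against 0.07 and -0.07 for all genes in the same ranges. Dim probe sets thus held 16 of the 27 higher members, and the 2 level ranges differed in direction among all genes too.

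In gene order, 31 of the 47 members lay in 13 groups with at most 5 other protein-coding genes between neighbours, and 16 lay alone. Members of both directions occurred in 10 of the 13 groups. None of these differences passed, and some were smaller than their standard error. The share among groups of other genes was not computed. UGT73C1 and UGT73C2, direct neighbours on chromosome 2, differed by -0.58 and 0.24. Their mean levels lay at the 61.6th and 8.9th percentiles. UGT84B2 and UGT84B1, also neighbours on chromosome 2, differed by 0.35 and 0.23 and were thus among the 3 groups with 1 direction. UGT84B1 glucosylates the auxin indole-3-acetic acid, and both genes had overlapping groups.

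By role, glycosyltransferase genes of known acceptors were read together with those that the gene table names in another way, and no gene of any role list passed the test. Of 3 analysed genes of auxin glycosylation, 2 had all their esd7-1 values below all their Ler values, as did 5.27% of all genes. Besides UGT74D1 this was IAGLU (AT4G15550), annotated as an indole-3-acetate glucosyltransferase. IAGLU read 6.51, 6.49 and 6.36 in esd7-1, against 6.97, 6.77 and 7.17 in Ler. The groups did not overlap, and the difference was -0.52 (standard error 0.13, limma adjusted p 0.794). It was -0.57 among the 4 arrays without high control RNA and -0.41 between the 2 with it. UGT84B1, the other gene of the list, had values of 3.93, 3.60 and 3.42 in esd7-1 and 3.35, 3.42 and 3.49 in Ler, and its difference of 0.23 had a standard error of 0.15. The median of the auxin list, which is the IAGLU value, was -0.52, against 0.02 over all genes. Mean level lay at the 77.3rd percentile for UGT74D1, the 74.6th for IAGLU and the 12.9th for UGT84B1. All genes at or above the 40th percentile had a median of -0.07, and those below it 0.07. In the upper range, 621 of 7306 genes had all esd7-1 values below all Ler values.

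All 3 analysed genes for salicylate and related benzoates, of 6 listed, read higher in esd7-1, as did 54.7% of all genes. Their median was 0.23. These were UGT76B1, UGT76D1 at 0.23 with a standard error of 0.19, and the salicylic acid glucosyltransferase UGT74F1 at 0.19 with a standard error of 0.14. UGT71C3, known for methyl salicylate and at 0.42, was not in the list, so the count depends on the list. The groups overlapped for UGT76D1 and UGT74F1. Among the 4 arrays without high control RNA these 2 genes differed by 0.01 and 0.06. UGT76D1 read 4.85 on esd7-1 replicate 3, against 4.35 and 4.25 on the other esd7-1 arrays. Mean level lay at the 36.0th percentile for UGT76B1, the 40.8th for UGT76D1 and the 40.4th for UGT74F1. Of all genes, 75.5% below the 40th percentile read higher in esd7-1, and 37.4% at or above it. UGT76D1 and UGT74F1 lay close to this cut, while all genes at or above it had a median at the 68.0th percentile. Neither share thus describes these 2 genes closely.

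Of 8 phenylpropanoid and monolignol genes, 4 were higher and 4 lower, with a median of 0.05. Apart from the UGT84A genes, GT72B1 (AT4G01070, also UGT72B1), a glucosyltransferase of monolignols and xenobiotics, differed by -0.38 (standard error 0.19). Its groups overlapped, at 6.86 to 7.01 in esd7-1 and 6.91 to 7.57 in Ler. UGT72E3, of the monolignol group, differed by 0.31 (standard error 0.24), and by 0.05 without esd7-1 replicate 3, where it read highest. For abscisic acid, 2 of 3 analysed genes were higher, with UGT71B8 at 0.17. The 3 analysed stress-responsive genes were UGT73B1, UGT73B4 and UGT73B5, of which 2 were higher.

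Among 5 flavonoid glycosylation genes the differences ran from -0.12 to 0.35, with a median of 0.12. UGT78D2, which glucosylates flavonols and anthocyanidins, read 6.78, 7.06 and 7.05 in esd7-1 and 7.05, 6.75 and 7.44 in Ler. UGT78D3, which adds arabinose to flavonols, differed by 0.12 with a standard error of 0.10. UF3GT (AT5G54060, also UGT79B1) differed by 0.35. It is annotated as a flavonoid glucosyltransferase but listed by role as an anthocyanin 3-O-glucoside xylosyltransferase. Its value on Ler replicate 2 was 4.81, against 5.59 and 5.76 on the other Ler arrays, and among the 4 arrays without high control RNA it differed by 0.07. AT5G54010 (UGT79B6) differed by 0.17. Of 11 listed genes of flavonoid synthesis, 2 were analysed. DFR, the dihydroflavonol reductase upstream of anthocyanidins, differed by 0.61, and by 0.24 without Ler replicate 2 and 1.06 without esd7-1 replicate 3. BAN, the anthocyanidin reductase, which leads anthocyanidins into the separate branch of proanthocyanidins, differed by 0.13. None of 11 listed genes of UDP-sugar supply was analysed here.

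Cytokinin glucosyltransferases UGT76C1 and UGT76C2 differed by -0.01 and 0.06, with standard errors of 0.14 and 0.25. The 95% interval was -0.35 to 0.34 for UGT76C1 and -0.53 to 0.65 for UGT76C2. UGT73C1, which forms cytokinin O-glucosides, differed by -0.58 with a standard error of 0.47. With 1 array left out its difference ran from -1.08, without Ler replicate 2, to -0.27, without Ler replicate 3. The sterol glucosyltransferases UGT80B1 and SGT (AT3G07020, also UGT80A2) differed by 0.21 and -0.12.

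**Figure D3:**
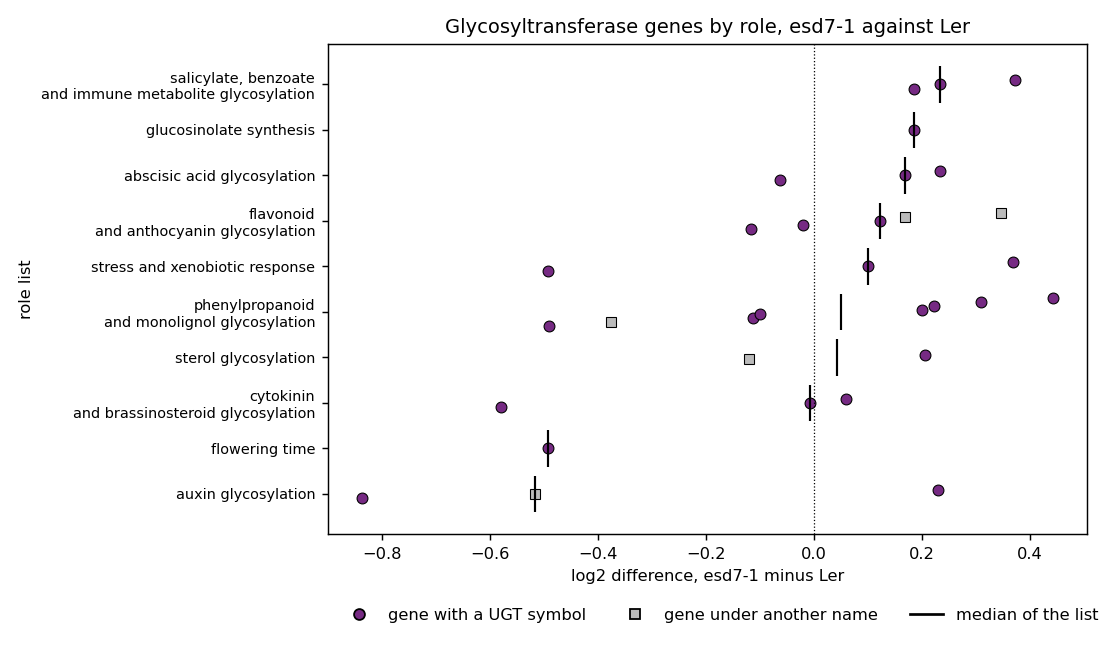
Log2 difference, esd7-1 minus Ler (x axis), of glycosyltransferase genes by role list (y axis). Circles are genes with a UGT symbol, squares glycosyltransferase genes under another name, and lines the median of each list. The auxin list has the lowest median, -0.52, with 1 of its 3 genes above 0.

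Several UGT genes differed more between the arrays with high control RNA and the other 4 than between genotypes. For 6 of 47 members, or 12.8%, the 2 arrays differed from the others by more than 1 on the log2 scale, against 2% of all genes. Of the 6, 2 were higher there (1.34% of all genes) and 4 lower (0.659% of all genes). The arrays were divided by bacterial control transcripts alone, and no test was made of this division. For 25 members, or 53.2%, the difference between these arrays was larger in size than that between genotypes, against 57.5% of all genes.

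Monolignol glucosyltransferases were the 2 higher ones. UGT72E2, which glucosylates coniferyl and sinapyl alcohol, read 6.63 on esd7-1 replicate 3 and 5.62 on Ler replicate 2, against 4.67 and 4.71 on the other esd7-1 arrays and 5.0 and 4.72 on the other Ler arrays. UGT72E1, which acts on coniferyl aldehyde, read 7.45 and 7.85 on these 2 arrays, against 6.16 to 6.49 on the others. They were higher by 1.35 and 1.30, and UGT72E3 by 0.55. Between genotypes UGT72E1 and UGT72E2 differed by -0.10 and 0.22, with standard errors of 0.50 and 0.55.

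The 4 lower ones were UGT74B1, UGT73C1, UGT78D1 and UGT87A2. UGT74B1, which makes desulfoglucosinolates, read 6.93 on esd7-1 replicate 3 and 7.03 on Ler replicate 2, against 7.92 to 8.75 on the other arrays. UGT78D1, which adds rhamnose to flavonols, read 6.61 and 6.63 on the 2 arrays, against 7.48 to 8.00 on the others. In both genes the pair of arrays agreed closely across genotypes: UGT74B1 differed by -0.10 and UGT78D1 by -0.02 between them.

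UGT87A2 is known for promoting flowering upstream of the repressor FLC. It read 6.68, 7.46 and 5.91 in esd7-1, against 7.29, 6.51 and 7.73 in Ler. The genotypes overlapped, with a difference of -0.49, a standard error of 0.45 and a 95% interval of -1.58 to 0.59. The difference was -0.44 among the 4 arrays without high control RNA and -0.60 between the 2 with it, while the 2 arrays differed from the others by -1.08. With 1 array left out the genotype difference ran from -0.88, without esd7-1 replicate 2, to -0.11, without esd7-1 replicate 3. UGT73C1 read 5.40, 5.95 and 4.86 in esd7-1 and 6.37, 4.98 and 6.60 in Ler. Among the 4 arrays it differed by -0.81 between genotypes, and between the 2 by -0.12.

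Root markers moved with this division of the arrays. PYK10 was higher by 1.32 and the root-hair expansin EXPA7 by 0.87 on the arrays with high control RNA, and the photosynthesis genes RCA and PSAN by 0.17 and 0.08. Of the listed markers, 2 of 4 for root and 2 of 6 for shoot were analysed. The summed linear level of the root markers ranged from 1533 to 4072 in esd7-1 and from 1383 to 3587 in Ler, and that of the shoot markers from 17476 to 21256 in esd7-1 and from 19922 to 21786 in Ler. The part of root tissue or of RNA handling in the differences between arrays was not tested.

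**Figure D4:**
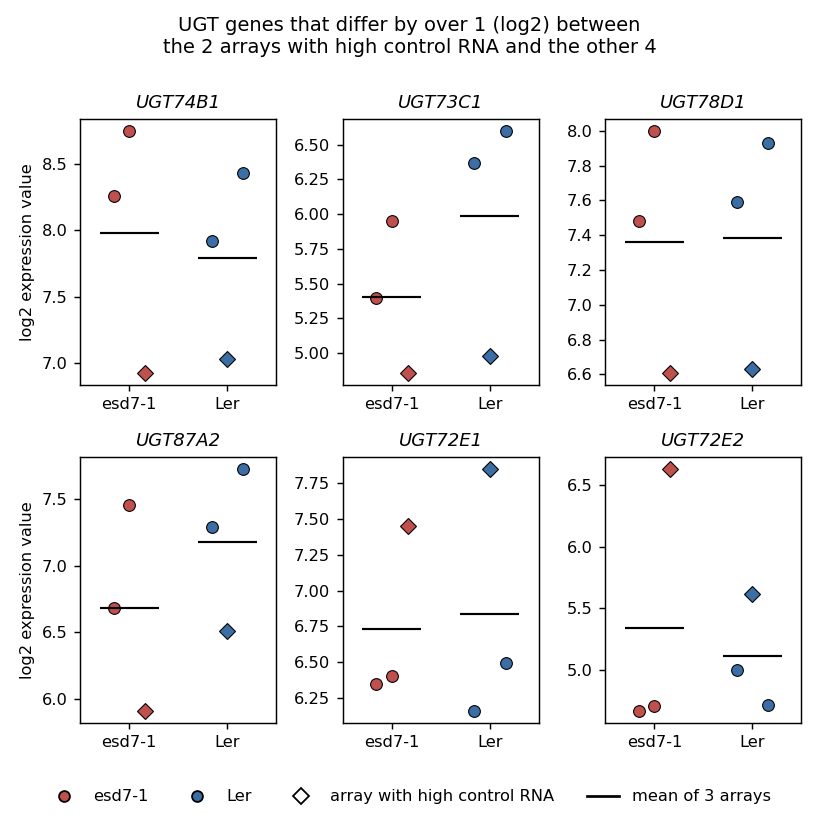
Log2 expression values (y axis) of the 6 UGT genes that differed by over 1 between the 2 arrays with high control RNA and the other 4, esd7-1 left and Ler right (x axis). Points are arrays, diamonds the arrays with high control RNA, and lines the means of 3 arrays. The diamonds are the lowest value of each genotype in UGT74B1, UGT73C1, UGT78D1 and UGT87A2 and the highest in UGT72E1 and UGT72E2.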

How the data were processed

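Per the submitters' processing notes, RMA and limma were used, with no version or setting given. The deposited table holds 1 log2 value per probe set and array. RMA corrects background, quantile-normalizes the arrays and summarises probes, so a general shift is reduced and low values are compressed. A shift by level remained. Of all genes, 37.4% at or above the 40th percentile read higher in esd7-1, and 75.5% below it. Of 22810 probe sets, 64 controls were left out. In the platform annotation 13513 probe sets name 1 gene, 503 name more than 1, and the remaining 8730 have no name here. Symbols were updated through gene identifiers to the RefSeq table of assembly TAIR10.1, where all 47 members matched. The brightest probe set stood for a gene.

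Differences were fitted with limma 3.58.1, run in R 4.3.3 with lmFit and eBayes on genotype alone (two-sided), over 22746 probe sets, with Benjamini-Hochberg adjustment. On simulated data the test recovered 56.6% of 2-fold and 88.35% of 4-fold changes. Each of 20 runs held 200 changed probe sets, with both sizes mixed. With fewer changed probe sets the adjusted threshold is stricter, so recovery would be lower. The simulated probe sets varied independently, without the shared differences between arrays seen here. All member differences were smaller than 2-fold, so the absence of members that passed does not show equal levels. The number of arrays limits the precision. Genes named were members with an unadjusted p under 0.05, the 5 highest and 5 lowest differences, the largest difference in each family of 3 or more, and up to 2 per role list, or all of 3 or fewer. Other names were chosen after their values were seen. A listed gene was analysed only where a probe set named that gene and no other. Another 6 listed loci had a probe set but no gene name and were not used. Counts of analysed genes per role thus depend on the annotation. The arrays with high control RNA exceeded the median of the 6 control means by more than 0.5. The members, lists and settings were chosen with earlier results of these data known. Alternatives were a replicate block, other variance models, scalings and filters, and arrays left out. The labels do not say whether equal replicate numbers pair the arrays, and the main fit did not pair them.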

Additional observations from a re-analysis of the deposited data

How the results depend on the processing

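The count of 0 UGT genes that passed limma held with array weights, the replicate block, a robust trended variance, a second quantile normalization, median centring, dim probe sets left out, a term for the arrays with high control RNA, their removal, each array left out and a plain t statistic. Over all probe sets 33 passed with array weights, 4 with the term, 4 without the arrays with high control RNA, 1 without esd7-1 replicate 3 and 0 in the other fits. At an unadjusted p under 0.05 the count was 7. The smallest adjusted p of a member in limma was 0.0627 with array weights, for UGT73B1, and 0.0847 with the term, for UGT74D1. The array weights were 3.71, 0.63 and 0.25 for esd7-1 replicates 1 to 3, and 1.41, 0.55 and 2.19 for Ler. The weighted fit thus rested mostly on replicate 1 in esd7-1. At that unadjusted threshold there were 3 members with the replicate block (4.60% of all genes), 3 with the plain t statistic (5.20%), 3 without dim probe sets (fewer tested, 5.47%), 17 with array weights (18.2%) and 2 to 8 in the fits without 1 array (2.85 to 10.02%). The labels do not say whether equal numbers pair the arrays. Same-numbered arrays had deviations from their group means with a correlation of 0.54 for number 1, -0.41 for number 2 and -0.60 for number 3. Across numbers it was 0.63 for esd7-1 replicate 2 paired with Ler replicate 3, and 0.59 for esd7-1 replicate 3 paired with Ler replicate 2, which no label pairs. Members higher in esd7-1 numbered 27, 20 with array weights (51.9% of all genes), 11 of 27 without dim probe sets (fewer tested) and 25 to 32 in the fits without 1 array. The median difference was 0.093, -0.022 with array weights, -0.047 without dim probe sets, 0.035 without the arrays with high control RNA and 0.05 to 0.12 in the fits without 1 array. Members whose groups do not overlap numbered 7, and 16 with those arrays left out (fewer arrays), a setting chosen after the data were seen. Signs turned for small differences: with array weights UGT76C2 was -0.132 and UGT85A2 -0.00696, with a second quantile normalization UGT71C5 was 0.033 and UGT76C1 0.06, and without the arrays with high control RNA BAN was -0.08, SGT 0.01, UGT71B8 -0.005, UGT71C5 0.095 and UGT76C2 -0.065. Ranges over the 6 fits without 1 array included 0 for these genes: BAN -0.06 to 0.26, EXPA7 -0.143 to 0.522, PYK10 -0.275 to 0.602, RCA -0.187 to 0.00833, UGT71C5 -0.142 to 0.063, UGT73B4 -0.067 to 0.258, UGT74B1 -0.198 to 0.712, UGT76C1 -0.117 to 0.118 and UGT76C2 -0.197 to 0.213. Of the 34 genes named by the stated rule, 26 turned or moved by over 1.5 times with some array left out. None of these passed, and the cause was not tested. Every member had 1 probe set and the same symbol in both tables, so the mean of probe sets and the older symbols gave the same values. Low signal limits 20 of the 47 members: a small difference there does not show a detected and equal transcript.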

Other observations

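Another 4 genes with a UGT number had a signal on 3 probe sets that name several genes, so they were no members. The probe set of UGT73B2 and UGT73B3 read 8.21, 8.98 and 7.84 in esd7-1, against 8.74, 7.95 and 9.18 in Ler. The genotypes overlapped, at a difference of -0.28 with a standard error of 0.39, and the array with high control RNA was the lowest of each genotype. The probe set of UGT89B1 and AT1G73885 differed by -0.02 (standard error 0.13), and that of UGT71D1 and AT2G29710 by 0.09 (standard error 0.28). None passed in limma.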
